A study of Mus musculus with 14 samples.

Results

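The cells described here are the members of the largest T cell clone in each of the 2 white nodules from cKO mice whose T cell receptors (TCRs) were profiled. A clone was defined by its TCR beta chain, that is by the V gene, the J gene and the nucleotides of the complementarity-determining region 3 (CDR3), and the beta chain held by most cell barcodes of each TCR library was taken. Members were chosen by this readout alone, then kept if the same barcode was a called cell in the RNA library of that nodule with at most 10% mitochondrial UMIs. They numbered 6717 of 77442 deposited cells, 1963 in mouse 30 and 4754 in mouse 32. All 7 mice of the series were Eif3e fl/fl Cγ1-Cre (cKO), in which a Cre recombinase made from the immunoglobulin γ1 locus removes the translation initiation factor subunit eIF3e in activated B cells, so T cells are not its target. The study lists a Rosa26-YFP reporter in mice 29, 31, 32 and 34 and none in mice 27, 30 and 33. Mouse 30 gave a liver nodule at 14 mo of age and mouse 32 a spleen nodule at 12 mo. Nodules profiled for the B cell receptor (BCR) were from the liver of mouse 27 and the lung of mouse 29, both aged 12 mo, from the spleen of mouse 31 at 13 mo and the thymus of mouse 33 at 16 mo, and from lung plus thymus of mouse 34 at 9 mo. The tumor of mouse 27 had been grown in a Rag2-/- recipient, so whether its labelled site and age are those of the donor was not settled. The nodules were dissociated and cleared of dead cells and erythrocytes, and whole suspensions were sequenced without a sort.

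A T cell rearranges its beta and alpha chain genes during development. Bases added or removed where the segments are joined make the CDR3 a tag that all descendants of that cell share. Helper T cells carry the coreceptor CD4 and are grouped by what they make for other cells. T follicular helper (TFH) cells, driven by Bcl6, give B cells CD40 ligand, IL-21 and IL-4 in germinal centers. Th1 cells use T-bet and make interferon-γ, Th2 cells use GATA3 and make IL-4, IL-5 and IL-13, and regulatory T cells are marked by Foxp3. Cytotoxic T cells use Eomes or T-bet and carry granzymes and perforin.

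The receptors of both clones are shown because they define the members. They were copied from the deposited contigs, 5′ to 3′, with the junction bases in capitals, which are the bases left between the V-side start shared with at least 3 other receptors using the same V gene and the J-side end shared with at least 3 others using the same J gene (for TRAJ17, only 2 others existed).
mouse 30 beta, TRBV1 and TRBJ2-1: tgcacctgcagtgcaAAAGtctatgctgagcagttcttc
mouse 30 alpha, TRAV9-2 and TRAJ21: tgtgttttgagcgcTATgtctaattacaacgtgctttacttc
mouse 32 beta, TRBV26 and TRBJ2-5: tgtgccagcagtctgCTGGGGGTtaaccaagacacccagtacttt
mouse 32 alpha, TRAV6N-7 and TRAJ30: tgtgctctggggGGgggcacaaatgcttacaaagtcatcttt
mouse 32 second alpha, TRAV14D-3-DV8 and TRAJ17: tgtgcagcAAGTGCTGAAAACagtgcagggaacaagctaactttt
For comparison, the next commonest beta chains were
mouse 30 next beta, TRBV16 and TRBJ2-4: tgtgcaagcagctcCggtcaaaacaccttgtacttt
mouse 32 next beta, TRBV15 and TRBJ2-1: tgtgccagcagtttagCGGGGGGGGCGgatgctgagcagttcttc
The beta chain CDR3 was 39 bases long in mouse 30, with 4 junction bases, and 45 bases long in mouse 32, with 8. Neither beta chain occurred in the other nodule, and no other receptor with the same V gene lay within 2 bases of either.

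The clone of mouse 30 held 1973 of 2324 barcodes with a beta contig, a share of 84.9% (exact 95% Clopper-Pearson interval 83.4% to 86.3%), and the next of its 163 beta chains held 37 barcodes (1.59%). The clone of mouse 32 held 4794 of 5217 barcodes (91.9%, 91.1% to 92.6%), and the next of its 229 beta chains held 39 (0.748%). These shares and intervals, like all intervals given here, cover counting error only, and the shares are a description because clone size was the rule of choice. Of the clone barcodes, 10 in mouse 30 and 37 in mouse 32 were absent from the RNA library. The mitochondrial limit removed 0 cells in mouse 30, where the highest member stood at 6.73%, and 3 in mouse 32, where the highest kept and the lowest removed cell stood at 9.96% and 10.05%. Members made up 18.7% and 35.6% of the RNA cells of mice 30 and 32. The libraries of the 2 nodules shared 188 barcodes, of which 14 were members.

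**Figure D1:**
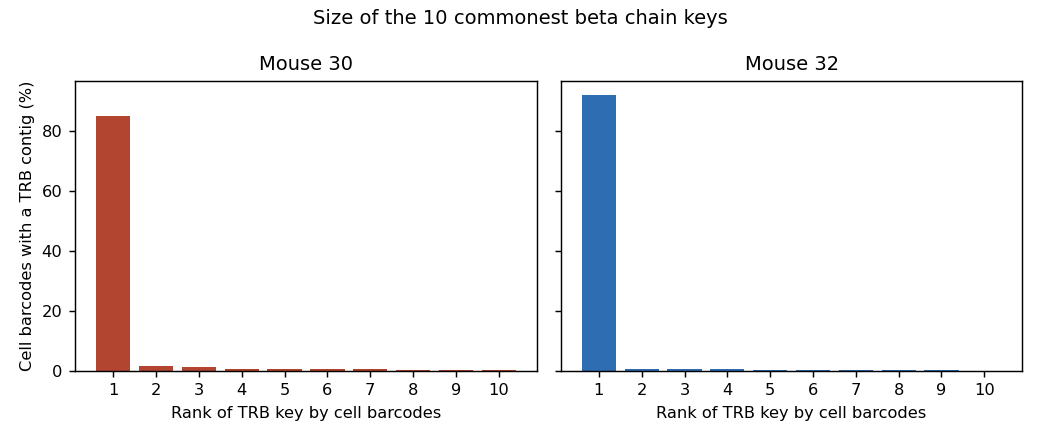
Share of cell barcodes with a beta chain contig (y axis, %, from 0) held by each of the 10 commonest beta chains (x axis, rank), in the TCR libraries of mice 30 and 32. A single bar reaches 84.9% in mouse 30 and 91.9% in mouse 32, and the second bar is 1.59% and 0.748%.

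The alpha chains separated members less cleanly, because many cells had no alpha contig. In mouse 30, 947 clone barcodes (48.0%) carried the TRAV9-2 alpha chain and 1026 carried none. In mouse 32, 2395 (49.96%) carried both alpha chains, 1222 the TRAV6N-7 chain alone, 715 the TRAV14D-3-DV8 chain alone and 462 neither. No clone barcode carried another alpha chain in place of these. The RNA libraries gave a second readout of the alpha segments from the same cell barcodes. In members with the contig a high share was thus bound to be found. A Trav9-2 UMI was found in 98.2% of mouse 30 members with that contig, in 17.8% of those without it (15.5% to 20.3%), in 3.70% of other TCR-called cells and in 2.97% of myeloid-gated cells, which should lack it. For Trav14d-3-dv8 in mouse 32 the shares were 96.0%, 64.0% (61.6% to 66.3%), 8.57% and 5.40%. Members without an alpha contig were shallower in RNA, with a median of 1794 UMIs against 2255 in mouse 30, and 2484 against 4963 for cells with both chains in mouse 32. Members without the contig thus exceeded the myeloid level in both mice. Trav6n-7 has near-identical copies, so its RNA values are not used.

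The labels of both clones were checked against T cell and other markers. Members were chosen by a beta chain contig of the same cell barcode. RNA of its V segment was thus bound to be found in them and is a description only. In the RNA a Trbv1 UMI was present in 99.7% of mouse 30 members, and a Trbv26 UMI in 1 of these 1963 cells. In mouse 32 a Trbv26 UMI was present in 95.1% of members, and a Trbv1 UMI in 4 of 4754. Cd3e, a subunit of the TCR complex, stood at 660 CPM (UMIs scaled to a total of 1000000) over the summed members in mouse 30 and 358 CPM in mouse 32. Cd4 stood at 178 and 169 CPM. A Cd8a or Cd8b1 UMI was found in 4 members of mouse 30 (0.204%) and 41 of mouse 32 (0.862%). Members with at least 2 UMIs of B cell genes were 0.153% and 0.0841%, and those with at least 5 UMIs of myeloid genes were 0.611% and 2.29%. Transcripts of other cell types were found in the summed members. The 8 neutrophil genes summed to 830 and 2831 CPM in the members against 106401 and 59306 CPM in myeloid-gated cells. The 8 erythroid genes summed to 2.95 CPM in mouse 30 but 2094 CPM in mouse 32. There, other TCR-called cells had 2150 CPM and myeloid-gated cells 1781 CPM. Free RNA and doublets were not told apart, and the part of such RNA in each difference was not tested. Members held 5077581 UMIs in mouse 30 and 27171842 in mouse 32, with medians of 1987 and 3854 per cell. Over 5 times the median were 28 members (1.43%) of mouse 30 and 186 (3.91%) of mouse 32, and the highest held 19014 and 245393 UMIs. Such cells weigh more in summed counts, and their part in the values was not tested. Shares of cells with helper, cytokine and chemokine transcripts are given after each cell was thinned to 1000 UMIs, whereas the receptor and marker checks use all UMIs. Eif3e took 6.23% (5.80% to 6.69%) of the UMIs of 14 eIF3 genes in the mouse 30 clone and 5.82% (5.64% to 5.997%) in the mouse 32 clone. Other TCR-called cells had 7.47% and 6.65%, and CD4-gated T cells of the BCR-profiled nodules 4.61% to 6.51%.

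Each clone was first set against the other TCR-called cells of its own nodule, 351 in mouse 30 and 420 in mouse 32, with counts summed per mouse and mouse as a block. At an adjusted p of 0.05, edgeR's quasi-likelihood test called 0 of 11582 genes (0%), with 878 at an unadjusted p of 0.05, and DESeq2 called 191, of which 51 were higher in the clones. With 2 mice this design leaves 1 residual degree of freedom. CPM was higher in the clone in both nodules for 39.4% of all genes tested and lower in both for 18.6%. A second comparison set both clones against CD4-gated T cells (at least 1 Cd4 UMI, no Cd8 UMI, at least 2 UMIs of Cd3 genes or Trac, and at most 1 UMI each of B cell and of macrophage genes) of the 5 BCR-profiled nodules. Here edgeR called 0 of 8701 genes (0%), with 590 at an unadjusted p of 0.05, and DESeq2 called 145, of which 21 were higher. Both clones lay above all 5 nodules for 5.29% of genes and below all 5 for 3.86%. The clone samples are the same in both comparisons, so their values are given side by side. Clone and nodule type cannot be told apart in the second, and its members were not held to the gate of the comparators. The gate would pass 29.6% and 47.1% of the members of mice 30 and 32. Those members were deeper, with medians of 2657 and 5061 UMIs per cell. With them alone edgeR called 0 of 8713 genes. In summed counts, fewer expressing cells and less RNA per cell cannot be told apart.

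The feature shared by both clones was IL-4 and IL-13 transcript beside several B cell help genes. Il4 stood at 225 CPM (212 to 238) in the mouse 30 clone against 55.6 CPM in the other TCR-called cells of that nodule, and at 178 CPM (173 to 183) against 64.1 CPM in mouse 32. The 5 sets of CD4-gated T cells had 0, 25.02, 77.6, 7.10 and 3.995 CPM in mice 27, 29, 31, 33 and 34. Both clones were thus above every other set. The clone was 4.04-fold (3.04 to 5.48) and 2.77-fold (2.30 to 3.35) above its neighbors by counting error. In the edgeR fit the log2 difference was 1.62 ± 0.24 (SE), with an adjusted p of 0.298 by edgeR and 0.00851 by DESeq2. Each SE given here is the log2 difference over the root of edgeR's F statistic. It is not the spread of the difference between mice. Il13 stood at 28.0 CPM against 1.11 CPM in mouse 30 and at 36.3 CPM against 6.03 CPM in mouse 32, and at 0 to 14.1 CPM in the CD4-gated sets. Its log2 difference within nodules was 3.01 ± 0.54, with an adjusted p of 0.360 by edgeR and 0.0350 by DESeq2. Gata3, the Th2 regulator, did not separate the clones in the same way, with 226 CPM against 160 CPM in mouse 30 and 76.7 CPM against 80.6 CPM in mouse 32. Il5, the third Th2 cytokine, had 0 UMIs in the mouse 30 clone and 2.50 CPM in the mouse 32 clone. Ccr8, a chemokine receptor of Th2 and skin-homing cells, stood at 102 CPM against 43.4 CPM and at 121 CPM against 83.3 CPM, within the range of the CD4-gated sets (11.6 to 198 CPM). Of 12 Th2 genes tested, 3 were higher and 2 lower in the clone in both nodules, against 39.4% and 18.6% of all genes. None was called by edgeR, and the median log2 difference was 0.11 against 0.03 over all genes tested. By direction within nodules the Th2 list as a whole thus did not stand apart. At an unadjusted p under 0.05 by edgeR, 2 were higher and 2 lower, against 388 and 490 of all 11582 genes. Against the CD4-gated sets, 3 of 12 genes lay above all 5 and 0 below, against 5.29% and 3.86% of all genes.

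Several single genes of B cell help lay above the neighbors in both nodules, while by direction within nodules the TFH list did not stand apart. Of its 19 genes tested, 9 were higher in the clone in both nodules, a share near that of all genes, and 1 was lower. The median log2 difference was 0.28, with no edgeR call. At an unadjusted p under 0.05 by edgeR, 4 were higher and 0 lower, against 388 and 490 of all 11582 genes. Against the CD4-gated sets, 3 of 17 genes lay above all 5 and 1 below, against 5.29% and 3.86% of all genes. Cd40lg, the ligand by which helper T cells engage CD40 on B cells, stood at 194 CPM against 94.6 CPM in mouse 30 and at 171 CPM against 76.2 CPM in mouse 32. The CD4-gated sets had 32.5, 122, 77.6, 14.7 and 49.3 CPM, all below both clones. Tox2, a nuclear factor of TFH and chronically stimulated T cells, stood at 304 CPM against 136 CPM and at 314 CPM against 23.0 CPM, and at 72.8 to 225 CPM in the CD4-gated sets. Within nodules its log2 difference was 2.31 ± 0.74, with an adjusted p of 0.610 by edgeR and 0.0146 by DESeq2. Pdcd1, which encodes the inhibitory receptor PD-1 of TFH cells, stood at 308 CPM against 137 CPM in mouse 30 and at 126 CPM against 84.9 CPM in mouse 32, but CD4-gated sets ranged from 105 to 222 CPM, so the clones did not stand apart. Bcl6 stood at 163 CPM against 113 CPM and at 85.5 CPM against 63.6 CPM, again inside the CD4-gated range of 21.0 to 173 CPM. Tigit, an inhibitory receptor, stood at 863 CPM against 426 CPM and at 459 CPM against 254 CPM, above the CD4-gated range of 278 to 416 CPM.

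Other TFH genes parted the clones from each other or from the programme. Cxcr5, the receptor that takes TFH cells into B cell follicles, was low in both, at 12.2 CPM in mouse 30 (70.1 CPM in other TCR-called cells) and 25.3 CPM in mouse 32 (15.3 CPM), both below the 27.7 to 91.8 CPM of the CD4-gated sets. Il21 stood at 76.8 CPM against 127 CPM in mouse 30 and at 24.8 CPM against 7.67 CPM in mouse 32, so the direction differed. Icos, a costimulatory receptor, stood at 103 CPM against 113 CPM and at 299 CPM against 180 CPM. Maf, which drives Il4 and Il21, stood at 600 CPM against 732 CPM and at 508 CPM against 299 CPM. Tcf7, the transcription factor of naive, memory and TFH cells, was at 243 CPM against 234 CPM and at 550 CPM against 133 CPM, and both clones exceeded the 17.5 to 226 CPM of the CD4-gated sets. Nfil3 stood at 282 CPM against 148 CPM in mouse 30 but at 138 CPM against 188 CPM in mouse 32.

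**Figure D2:**
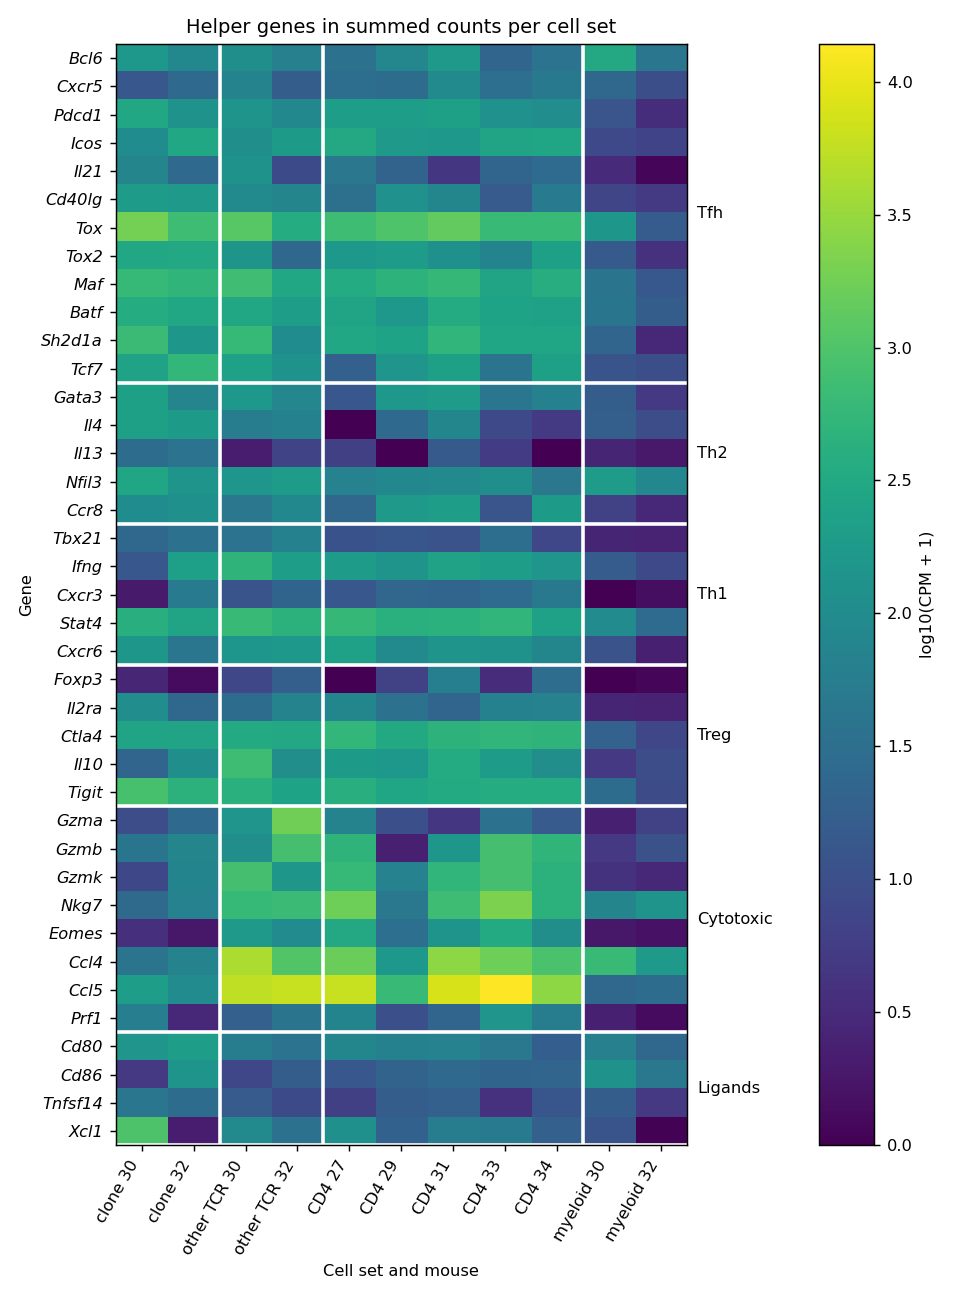
Heatmap of helper, cytotoxic and ligand genes (rows, grouped by list) in the summed cells of each set and mouse (columns), colored by log10(CPM + 1). Il4 and Il13 are highest in the 2 clone columns, and Eomes, Ccl4 and Ccl5 are dark there against most other T cell columns.

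Among costimulatory ligands, which antigen-presenting cells use to activate T cells, Cd80 and Tnfsf14 lay above the neighbors in both nodules. By direction within nodules the list as a whole did not stand apart. Of its 8 genes tested, 3 were higher and 2 (Icosl and Tnfsf9) lower in the clone in both nodules, against 39.4% and 18.6% of all genes. The median log2 difference was 0.25, with no edgeR call. At an unadjusted p under 0.05 by edgeR, 2 were higher and 0 lower, against 388 and 490 of all 11582 genes. Against the CD4-gated sets, 2 of 6 genes lay above all 5 and 0 below, against 5.29% and 3.86% of all genes. Cd80 stood at 142 CPM against 54.5 CPM in mouse 30 and at 207 CPM against 36.7 CPM in mouse 32. The CD4-gated sets had 80.1, 65.8, 67.1, 43.9 and 16.0 CPM, all below both clones, and myeloid-gated cells had 62.5 and 24.003 CPM. The log2 difference was 1.84 ± 0.35 within nodules and 1.66 ± 0.48 against the CD4-gated sets, with adjusted p of 0.396 and 0.487 by edgeR and 0.0102 and 0.141 by DESeq2. Tnfsf14, the TNF family ligand LIGHT, stood at 41.4 CPM against 14.5 CPM and at 28.1 CPM against 7.67 CPM, and at 2.89 to 17.6 CPM in the CD4-gated sets. Trerf1, a transcriptional regulator, stood at 410 CPM against 221 CPM in mouse 30 and at 303 CPM against 53.7 CPM in mouse 32. The CD4-gated sets had 97.6, 93.5, 45.9, 104 and 69.3 CPM, and the log2 difference from them was 2.03 ± 0.33, with an adjusted p of 0.0927 by edgeR and 1.06e-05 by DESeq2.

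The cytotoxic programme was low in both clones. Of 14 cytotoxic genes tested, 0 were higher and 11 lower in the clone in both nodules, against 39.4% and 18.6% of all genes. Their median log2 difference was -4.19, and 10 had an unadjusted p under 0.05 by edgeR, all lower. Eomes, a regulator of cytotoxic and memory T cells, stood at 2.56 CPM against 168 CPM in mouse 30 and at 0.846 CPM against 97.5 CPM in mouse 32. The CD4-gated sets had 318, 31.6, 138, 334 and 109 CPM. Its log2 difference was -6.57 ± 0.36 within nodules and -7.03 ± 1.202 against the CD4-gated sets, with adjusted p of 0.184 and 0.102 by edgeR and 8.67e-33 and 1.24e-12 by DESeq2. Ccl5, a chemokine of effector and memory T cells, stood at 204 CPM against 5588 CPM and at 99.4 CPM against 6159 CPM, and at 639 to 13855 CPM in the CD4-gated sets. Nkg7, a granule protein gene, stood at 26.2 CPM against 592 CPM and at 68.0 CPM against 666 CPM. Gzmb, which encodes granzyme B, stood at 39.0 CPM against 109 CPM and at 75.6 CPM against 838 CPM, but CD4-gated sets spanned 1.32 to 836 CPM. A single member held 61 of the 198 Gzmb UMIs in mouse 30 and 344 of the 2054 in mouse 32. Every one of these genes was thus lower in the clones than in their neighbors.

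The regulatory T cell marker was near 0. Foxp3 stood at 1.77 CPM in the mouse 30 clone (6.67 CPM in other TCR-called cells) and at 0.331 CPM in the mouse 32 clone (16.99 CPM). Tbx21, which encodes T-bet, stood at 23.4 CPM against 36.7 CPM and at 34.3 CPM against 64.7 CPM, and the CD4-gated sets had 6.66 to 30.7 CPM. Of 16 Th1 genes tested, 0 were higher and 7 lower in the clone in both nodules, against 39.4% and 18.6% of all genes. Their median log2 difference was -0.79. Against the CD4-gated sets, 0 of 15 Th1 genes lay above all 5 and 2 below, against 5.29% and 3.86% of all genes. The median log2 difference there was -0.25, and Tbx21 in the mouse 32 clone lay above all 5 sets.

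The other TCR-called cells include CD8 T cells, so the comparison was repeated against the 108 and 59 of them with Cd4 and without Cd8 UMIs. Here edgeR called 14 of 11207 genes (0.125%), 4 higher and 10 lower in the clones. Higher were Adgrl3, Tprg, Gm27166 and 4930554G24Rik, of which only Adgrl3, an adhesion receptor best known from neurons, has a role given here. Adgrl3 stood at 80.7 CPM against 2.62 CPM in mouse 30 and at 69.4 CPM against 3.89 CPM in mouse 32, and the CD4-gated sets had 0, 13.2, 0, 1.05 and 6.66 CPM. Its log2 difference was 4.54 ± 0.60, with an adjusted p of 0.0414. Tprg stood at 74.1 CPM against 0 CPM and at 401 CPM against 7.77 CPM (adjusted p = 0.0131 by edgeR). Among those lower were Eomes, Ccl5 and Gzma (adjusted p of 0.00557, 0.00557 and 0.0430 by edgeR), together with 6 beta chain V segments that the other T cells use and the rule excludes. Ccl5 fell by 4.47 on the log2 scale and Eomes by 5.80. Il4 stood at 34.1 and 46.6 CPM in the Cd4-bearing cells, with a log2 difference of 2.29 ± 0.38 and an adjusted p of 0.0700 by edgeR.

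**Figure D3:**
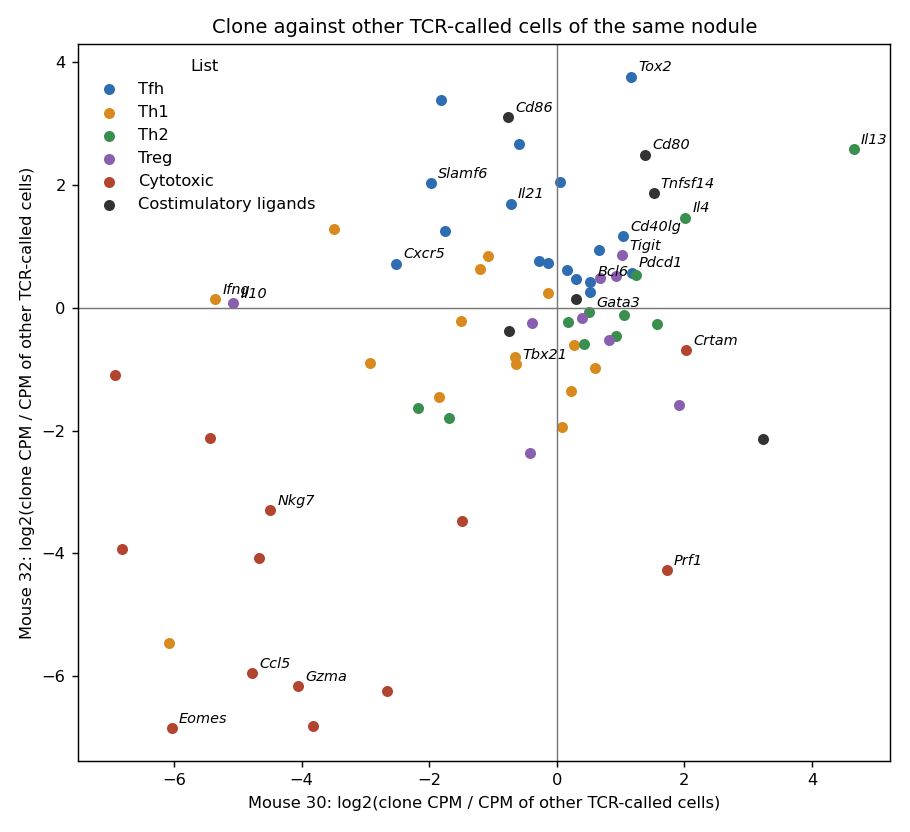
Each point is a gene of 6 helper, cytotoxic and costimulatory lists, at the log2 ratio of clone CPM to the CPM of other TCR-called cells in mouse 30 (x axis) and mouse 32 (y axis), colored by list. Il4, Il13, Cd80, Tox2 and Cd40lg lie in the upper right, Eomes, Ccl5 and Gzma in the lower left, and Ifng and Il10 far left at a mouse 32 ratio near 1.

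A search over all genes, with a 4-fold limit set after the values were seen, gave few genes that parted both clones from their neighbors. Of 2852 genes at 50 CPM or more in both clones, 4 (0.140%) were at least 4-fold above the other TCR-called cells in both nodules, namely Adgrl3, Tprg, Impa2 and Shtn1. Impa2, an inositol monophosphatase gene, stood at 140 CPM against 34.5 CPM and at 144 CPM against 32.9 CPM. Shtn1 stood at 280 CPM against 38.9 CPM and at 51.8 CPM against 7.67 CPM. Of 2789 genes at 50 CPM or more in both sets of other cells, 23 (0.825%) were at least 4-fold lower in both clones, which included T cell surface molecules as well as effector genes. Thy1, the pan-T cell glycoprotein CD90, stood at 2.56 CPM against 186 CPM in mouse 30 and at 28.2 CPM against 154 CPM in mouse 32, and the lowest CD4-gated set had 68.5 CPM. Cd6, a modulator of TCR signaling, stood at 2.36 CPM against 100.1 CPM and at 5.52 CPM against 76.2 CPM, and the lowest CD4-gated set had 31.8 CPM. Its log2 difference from the CD4-gated sets was -4.14 ± 0.65, with an adjusted p of 0.0927 by edgeR and 3.75e-09 by DESeq2. Havcr2, which encodes the inhibitory receptor TIM-3, stood at 5.51 CPM against 144 CPM and at 16.6 CPM against 70.1 CPM. Entpd1, the ectonucleotidase CD39, stood at 6.50 CPM against 102 CPM and at 15.7 CPM against 75.1 CPM. All 4 of these lay below each CD4-gated set. Of 15 T cell identity genes tested, 5 were higher and 5 lower in the clone in both nodules, against 39.4% and 18.6% of all genes. Cd28, the receptor for CD80, stood at 108 CPM against 238 CPM and at 131 CPM against 239 CPM. Cd5 stood at 21.5 CPM against 67.9 CPM and at 46.8 CPM against 68.5 CPM.

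The clones were then compared with each other, with no test because each is 1 sample. Of 4014 genes with at least 50 CPM and 100 UMIs in the higher clone, 140 (3.49%) were at least 4-fold higher in mouse 30 and 142 (3.54%) in mouse 32. Ratios carry exact counting intervals, and site, mouse, depth and clone cannot be told apart. The ratio in other TCR-called cells is given beside those the comparison turns on.

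The clone of mouse 30 was marked by Xcl1, an activation-induced chemokine that attracts cross-presenting dendritic cells, at 971 CPM (944 to 998) against 1.18 CPM (0.806 to 1.66) in mouse 32, a ratio of 824 (583 to 1206). Other TCR-called cells had 93.4 and 35.6 CPM, a ratio of 2.62. Cntn1, a neuronal adhesion molecule gene, stood at 257 CPM against 0.110 CPM, with 3 UMIs in mouse 32, and in other TCR-called cells at 14.5 and 7.12 CPM. Col12a1, a collagen chain, stood at 131 CPM against 0.147 CPM, and Gabrb2, a GABA receptor subunit, at 55.9 CPM against 0.110 CPM. Olfr1259, Gm4858, Zfp804b, Gm47392, Colec12, Apol7b and E330020D12Rik completed the 12 largest ratios with Cd96, a T and NK cell receptor, at 73.5 CPM against 0.773 CPM. Among helper and effector lists, Ikzf2, which encodes Helios of regulatory and activated T cells, stood at 1634 CPM against 251 CPM, a ratio of 6.51 (6.31 to 6.73). Its ratio in other TCR-called cells was 2.59, at 929 and 358 CPM. Tnfrsf9, the activation receptor 4-1BB, stood at 259 CPM against 31.6 CPM, and Il2ra, the high-affinity IL-2 receptor chain, at 104 CPM against 23.7 CPM. Prf1, which encodes perforin, stood at 58.7 CPM against 1.95 CPM, a ratio of 30.1 (22.4 to 41.1), and Crtam, a receptor of cytotoxic T cells, at 104 CPM against 10.9 CPM. In mouse 30 both were exceptions to the low cytotoxic genes, Prf1 at 3.30-fold (2.00 to 5.84) and Crtam at 4.08-fold (2.69 to 6.49) the level of the other TCR-called cells. Gzmc, at 2.36 CPM against 0 CPM there, was the only other tested cytotoxic gene not lower in both nodules. Cd101 and Sh2d1a, the latter encoding the SAP adaptor of TFH cells, had ratios of 4.52 and 4.27, but Sh2d1a also had a ratio of 5.84 in other TCR-called cells.

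The clone of mouse 32 carried Ifng, the Th1 cytokine, at 219 CPM (213 to 224) against 12.2 CPM (9.36 to 15.7) in mouse 30, a ratio of 17.9 (14.0 to 23.4). In other TCR-called cells Ifng was lower in mouse 32, at 198 CPM against 502 CPM in mouse 30. The clone of mouse 30 therefore stood at 0.0243 times its neighbors and that of mouse 32 at 1.10 times (0.992 to 1.23). Cd86, the second ligand of CD28, stood at 137 CPM against 3.94 CPM, a ratio of 34.8 (22.5 to 57.0), and other TCR-called cells of mouse 32 had 15.9 CPM. Of 7 naive and memory genes at 50 CPM or more in the higher clone, 3 were at least 4-fold higher in mouse 32. S1pr1, the receptor for tissue egress, stood at 139 CPM against 1.97 CPM, Klf2, its activator, at 541 CPM against 41.6 CPM, and Lef1, a partner of TCF-1, at 137 CPM against 11.03 CPM. In other TCR-called cells of mice 32 and 30, S1pr1 stood at 111 and 34.5 CPM and Klf2 at 563 and 125 CPM, so for these 2 genes the nodules differed there as well, while Lef1 stood at 84.4 and 165 CPM. Slamf6 and Izumo1r had ratios of 6.26 and 4.38. Il10, a regulatory cytokine, stood at 116 CPM against 21.7 CPM, and Gzmk at 72.9 CPM against 6.89 CPM. Their values in other TCR-called cells of mice 32 and 30 were 111 and 728 CPM for Il10 and 156 and 837 CPM for Gzmk. The mouse 32 clone thus lay near its neighbors for Il10 and below them for Gzmk. Egr1 had a ratio of 4.28 and Cd9 of 11.5, against 2.21 and 0.510 in other TCR-called cells. Ly6c2 stood at 103 CPM against 3.55 CPM, a ratio of 29.02, but other TCR-called cells also differed, at 119 and 10.01 CPM, and myeloid-gated cells of mouse 32 had 1590 CPM.

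The 12 largest ratios toward mouse 32 held genes of several origins. Car5b, a mitochondrial carbonic anhydrase gene, stood at 129 CPM against 0.591 CPM, Dpp6 at 122.6 CPM against 0.788 CPM and Smoc2 at 245 CPM against 1.97 CPM. Other TCR-called cells of mouse 32 had 12.1 CPM of Car5b, 2.19 CPM of Dpp6 and 17.5 CPM of Smoc2. Gm14275 and Nsg2 had 0 UMIs in mouse 30. With a floor of 3 counts there, the ratios toward mouse 32 were 144 and 119. The lower limits of their counting intervals were 117 and 96.4. Gm34084, Vwde, B530045E10Rik, Esm1 and Rhag also had higher values in the clone than in other TCR-called and myeloid-gated cells of that library. For Rhag, an erythroid gene, these values lay close together, at 64.7 CPM in the clone, 61.4 CPM in other TCR-called cells and 49.6 CPM in myeloid-gated cells. Its ratio over the mouse 30 clone was 110 with the same floor, and the lower counting limit was 89.0. Stfa1 and Stfa3 stood at 3168 and 852 CPM in myeloid-gated cells of mouse 32, above the 100.4 and 71.4 CPM of the clone.

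**Figure D4:**
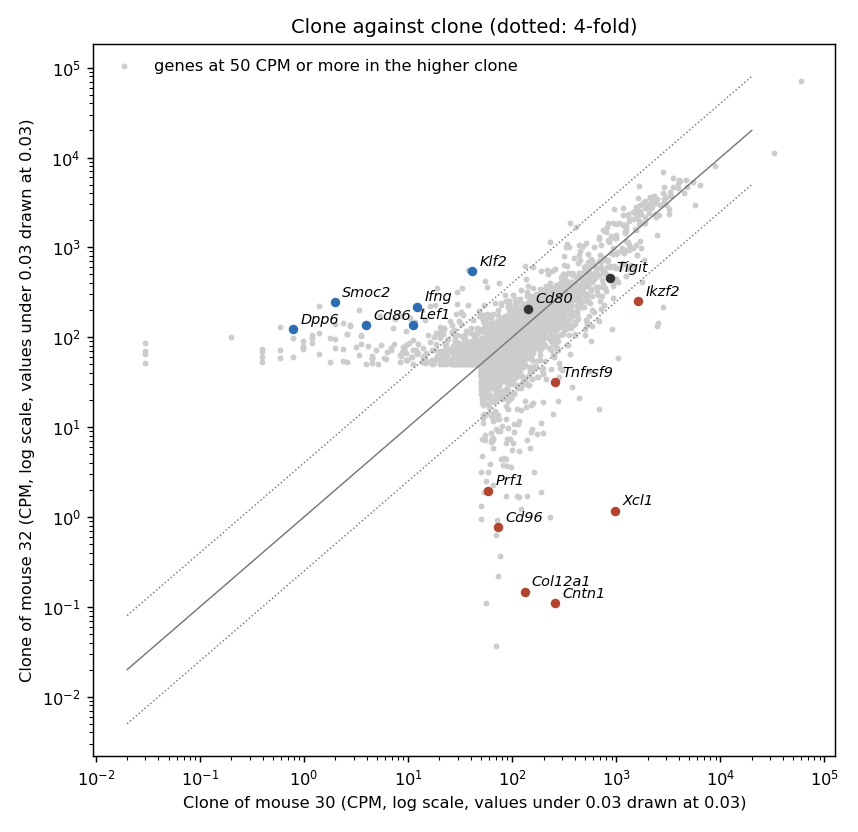
CPM in the clone of mouse 30 (x axis, log scale) against CPM in the clone of mouse 32 (y axis, log scale) for genes with at least 50 CPM in the higher clone, with dotted lines at 4-fold. Xcl1, Cntn1 and Prf1 lie below the lower line, Ifng, Cd86 and Klf2 above the upper line, and Cd80 and Tigit between the lines.

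Within each clone the helper cytokines were seen in a minority of cells, and the Il4 shares of both clones had overlapping intervals. At 1000 UMIs per cell, which left out 98 of 1963 and 17 of 4754 members, an Il4 UMI was found in 13.7% (12.2% to 15.4%) of the mouse 30 clone and 14.1% (13.1% to 15.1%) of the mouse 32 clone. Other TCR-called cells had 4.46% and 5.98%, and myeloid-gated cells, as a measure of free RNA, 1.03% and 0.875%. Without thinning the shares were 22.5% and 40.7%. Il13 was found in 2.63% and 3.21% of members against 0.172% and 0.0875% of myeloid-gated cells, Cd40lg in 17.3% and 17.1%, and Tox2 in 25.1% and 23.1%. Cd80 was found in 12.9% and 20.6% of members against 5.0% and 3.41% of myeloid-gated cells. Bcl6 was found in 14.2% and 8.68% of members and in 12.2% and 8.85% of other TCR-called cells. Myeloid-gated cells had 32.4% and 5.69%, and in mouse 30 they exceeded both T cell sets, so for this gene their share was not read as free RNA. Ifng was found in 0.697% and 17.4% of members against 1.03% and 0.875% of myeloid-gated cells, so the mouse 30 value was at background. Xcl1 was found in 21.6% of the mouse 30 clone, and its 0.211% in mouse 32 was also near the myeloid share, whose interval reached 0.322%. Pdcd1 was found in 26.5% and 12.7%, Icos in 9.71% and 25.8%, and Tcf7 in 21.98% and 42.2%. The share of the Cd4 UMI itself was 15.9% and 17.1%.

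**Figure D5:**
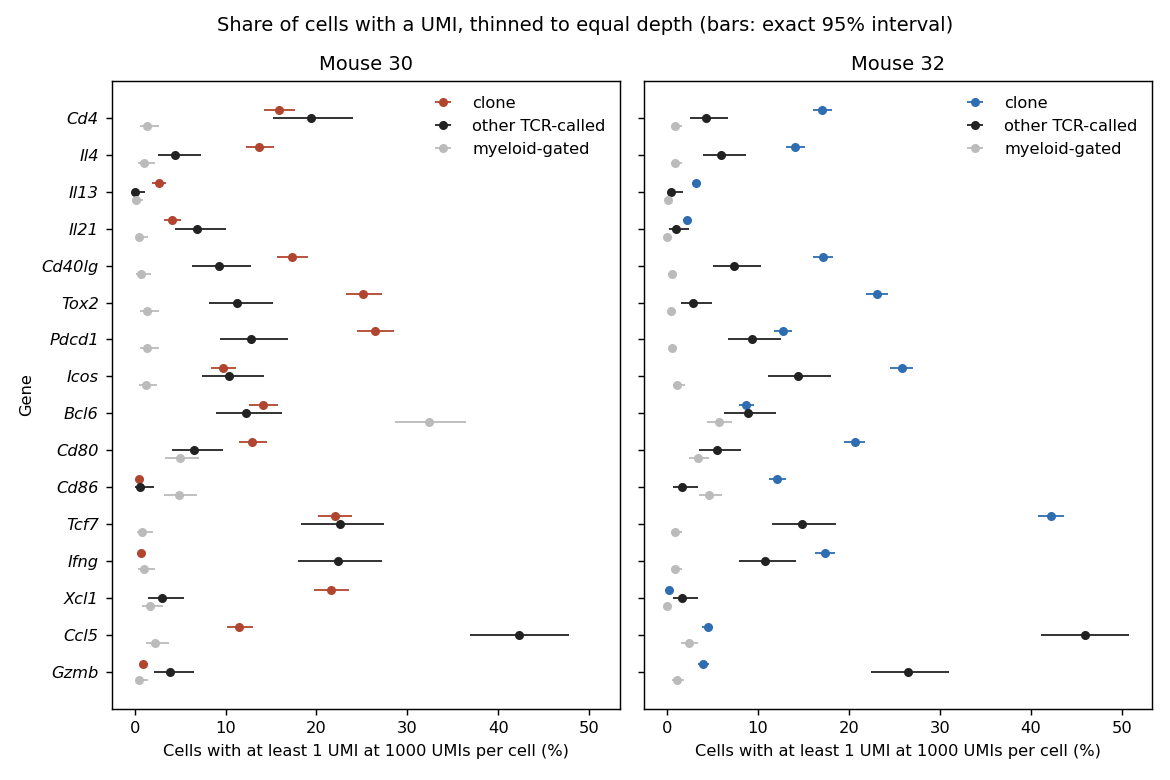
Percent of cells with at least 1 UMI of each gene (x axis) after thinning to 1000 UMIs per cell, in mouse 30 and mouse 32, for clone members, other TCR-called cells and myeloid-gated cells, with exact 95% intervals as bars. Il4, Cd40lg and Tox2 have overlapping intervals in both clones, Ifng reaches 17.4% only in mouse 32 and Xcl1 21.6% only in mouse 30 among the clones.

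The 10% of members with most Il4 UMIs held 78.0% of them in mouse 30 and 59.5% in mouse 32. Single members held up to 49 and 32 Il4 UMIs. The same measure for Cd3e, seen in most members, gave 34.1% and 33.5%. Genes seen in fewer cells gave higher values, with 60.2% and 56.2% for Bcl6 and 55.0% and 51.6% for Eif3e. In mouse 32 Il4 thus lay little above such genes. In mouse 30 the top 10% held 84.6% of Xcl1 UMIs, and in mouse 32 it held 71.7% of Ifng UMIs. Members with Il13 more often had Il4, 40.8% (26.997% to 55.8%) of 49 cells against 13.0% (11.5% to 14.6%) of the rest in mouse 30 and 26.3% (19.5% to 34.1%) of 152 cells against 13.7% (12.7% to 14.7%) in mouse 32. For Bcl6 the Il4 shares were 14.4% with and 13.6% without it in mouse 30, and 16.1% and 13.9% in mouse 32, with overlapping intervals. In mouse 32, 11.9% (9.79% to 14.3%) of cells with Ifng had Il4, against 14.6% (13.5% to 15.7%) of those without. Members with Tbx21 had Ifng in 36.7% (30.1% to 43.6%) of 210 cells in mouse 32, against 16.5% (15.4% to 17.6%) of the others. Cells are not replicates, so these are descriptions of 1 clone each. Thinned cells with Mki67, a marker of cycling cells, were 3.75% and 7.45% of the members, against 3.57% and 6.22% of other TCR-called cells.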

How the data were processed

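Nodules were profiled with droplet single-cell RNA and V(D)J libraries. The RNA matrices hold counts (UMIs per gene and called cell) as deposited, without normalization, and the V(D)J tables hold contig UMI counts and clonotypes that the authors made with SeekSoulTools. The submitters' processing notes name the builds GRCm38 and mm10. The aligner and annotation version are not given in the sources used here, and it was not settled whether the RNA counts come from a 5′ or a 3′ kit. Doublets were not removed. Some genes are not reported here.

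Counts were summed over cells per mouse and tested with edgeR 4.0.16 (R 4.3.3; filterByExpr, TMM, quasi-likelihood, Benjamini-Hochberg). DESeq2 1.42.0, other size factors, no filter, no block, other members or comparators and each mouse left out were alternatives. Comparators of the same nodule excluded the dominant alpha keys. Myeloid-gated cells had no TCR contig and at least 5 UMIs of myeloid genes. On simulated counts edgeR recovered 90.7% and 100% of genes changed by 2 log2 units in the within-nodule and CD4-gated comparisons. The simulation gave every gene the same dispersion and changed only genes with higher counts. These shares therefore show that the code runs as meant and do not measure power on the real counts. Descriptive values used Python 3.11.15 and scipy 1.17.1.

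Members and lists were chosen with earlier results of these data known. Named genes were 21 fixed helper, identity and study genes, genes past the threshold, the 12 largest clone-to-clone folds each way and helper-list genes that differed at least 4-fold. Il13, Cd40lg, Tox2, Tigit, Tcf7, Nfil3, Il5, Ccr8, Tnfsf14, Eomes, Ccl5, Nkg7, Gzmc, Icosl, Tnfsf9, Cd28, Cd5, Mki67, the genes of the 4-fold search and those of the closing section were named after their values were seen. The mouse is the replicate. Within nodules, both cell sets come from 1 animal, so mouse was a block.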

Additional observations from a re-analysis of the deposited data

Results flagged for a closer look

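Among the 5 CD4-gated sets, the highest value lay far from the rest for Tbx21 (30.7 CPM, mouse 33). Chance gives such a gap in about 1 in 20 groups. Several genes were higher in the clone than in other TCR-called cells of 1 nodule and lower in the other, and the difference between the mice was not tested. Clone over other cells was 17.8 in mouse 30 and 0.0155 in mouse 32 for Cntn1, 10.4 and 0.0331 for Xcl1, 16.6 and 0.101 for Gm4858, and 12.1 and 0.181 for Zfp804b. The ratios ran the other way for Car5b (0.0409 and 10.7), Gm34084 (0.0288 and 36.6), Vwde (0.0308 and 9.97), Smoc2 (0.148 and 14.0) and Cd9 (0.234 and 5.28).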

How the results depend on the processing

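Against other TCR-called cells, the count of genes called, 0 by edgeR with mouse as a block, was 191 with DESeq2, 186 without the filter on low counts and 14 against Cd4-bearing cells, and it was 0 with other size factors. In this paired design it was also 0 with no replicate block, with 479 genes at an unadjusted p of 0.05 in place of 878. Leaving out a mouse was not possible there, as no residual degree of freedom remained. Against CD4-gated T cells the count was 145 with DESeq2, 3 with DESeq2 size factors in edgeR and 818 without the filter, and it ranged from 0 to 51 when 1 mouse was left out (51 without mouse 30, where mouse 32 stands alone, 22 without mouse 29 and 5 without mouse 32). Beta chains with at least 3 UMIs gave clone shares of 87.3% and 93.2%. Thinning to 500 UMIs gave Il4 shares of 7.998% and 8.08%, and no thinning 22.5% and 40.7%. The causes were not tested. Of the recomputed values for the main results, 15 were classed as moved and 25 as the same. Among the other recomputed values, 137 were classed as moved, 234 as the same and 31 as stronger. No direction reversed among the results recomputed. Depth limits the mouse 30 clone and the small comparator sets most, where low genes rest on a few UMIs.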

Other observations

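The mouse 32 clone also carried transcripts of transcription factors of other lineages, which were looked at after the values were seen. Pax5, the B cell identity factor, stood at 42.5 CPM in the clone, against 1.64 CPM in other TCR-called cells, 0.423 CPM in myeloid-gated cells and 1.18 CPM in the mouse 30 clone. Cd79a, a B cell receptor subunit gene, stood at 0.994 CPM in the same cells. At 1000 UMIs per cell a Pax5 UMI was found in 4.37% (3.81% to 4.99%) of members and in 0 of 418 other TCR-called cells, for which the exact interval reaches 0.879%. Trp63, the p63 factor of epithelial basal cells, was found in 4.37% of thinned members of mouse 32, in 0 of 418 other TCR-called cells and in 0 of 1865 members of mouse 30.

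4930554G24Rik, a transcript with no role given here, was at 13.6 CPM in the mouse 30 clone and 199 CPM in the mouse 32 clone. Other TCR-called cells had 0 and 2.74 CPM and CD4-gated sets up to 7.90 CPM. With a floor of 3 counts for the other TCR-called cells, the clone was 4.07-fold higher in mouse 30. In mouse 32 the clone was 72.7-fold (31.1 to 224) higher. Sema6d, which encodes a semaphorin, was found in 13.7% and 4.20% of thinned members, against 2.68% and 0.957% of other TCR-called cells. The 11 dissociation response genes summed to 10645 and 12942 CPM in the clones against 20109 and 15292 CPM in other TCR-called cells. Of these genes, 7 were lower in the clone in both nodules, against 18.6% of all genes. Their part in the differences above was not tested.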
